A study of Mus musculus with 9 samples.

Results

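The genes described here are 8 that code for acidic histone chaperones, found as the rows of the deposited count table with the symbols Set, Nap1l1, Nap1l4, Anp32a, Anp32b, Anp32e, Ptma and Nasp. All 8 were found among its 22100 rows (Entrez 56086, 53605, 17955, 11737, 67628, 66471, 19231 and 50927 in the order given), and all 8 were among the 13090 genes that passed the filter on low counts. The RNA came from cultured mouse cortical astrocytes, the support cells of the brain cortex, grown in medium with fetal bovine serum. 3 libraries were of cells given 50 µM noradrenaline for 90 min, moved to medium without it and collected 3 d after the application (called 3 d). 3 were of cells collected when the 90 min of noradrenaline ended (called 90 min), and 3 were unstimulated cells titled with the 3 day time (controls). The labels give no genotype, strain, age or sex, and they do not say whether replicates were separate cultures, so a p-value covers only how these libraries spread, and that spread may be technical. The controls carry the 3 day time alone, so noradrenaline and the time of collection cannot be told apart at 90 min. The sources used here do not say whether control dishes got fresh medium, so medium renewal and noradrenaline cannot be told apart at 3 d.

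Histone chaperones are proteins that hold histones away from DNA and hand them over when nucleosomes are built, opened or copied. Histones are strongly basic, and the proteins of these genes carry stretches of aspartate and glutamate that bind them. Set and the Nap1 proteins share a fold and bind core histones, and Set also masks histone tails from acetyltransferases. Anp32a and Set inhibit protein phosphatase 2A (PP2A), and Anp32e takes the variant H2A.Z off chromatin. Prothymosin alpha, from Ptma, binds linker histone H1, and Nasp keeps a store of H3 and H4 for DNA replication.

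The acidic stretch that names the group is visible in the coding sequence of each gene. Codons for aspartate or glutamate made up 47.8% of the Ptma coding sequence, 39.7% of Anp32b, 36.9% of Anp32e, 35.6% of Anp32a, 29.8% of Set, 26.6% of Nap1l1, 23.9% of Nasp and 21.8% of Nap1l4. The median over 21591 mouse genes was 11.2%, and the share of genes above the member ranged from 0.00463% for Ptma to 1.13% for Nap1l4. The 25 codons richest in aspartate and glutamate held 24 such codons in Anp32b (codons 188 to 212), 21 in Set, Anp32a and Anp32e, 20 in Nap1l1 and Ptma, 18 in Nap1l4 and 14 in Nasp, against a median of 7 over all genes. Nasp had the weakest stretch, as 3.57% of genes held at least as many in their richest window. These 25 codons follow for Set, Nap1l1, Anp32b, Anp32e and Ptma, and those of Nap1l4, Anp32a and Nasp are not printed. The sequences are from the GENCODE M21 transcripts (GRCm38), 5′ to 3′ in frame, with the aspartate and glutamate codons in capitals.
Set, codons 261 to 285: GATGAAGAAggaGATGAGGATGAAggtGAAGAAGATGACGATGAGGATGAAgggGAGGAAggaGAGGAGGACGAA
Nap1l1, codons 348 to 372: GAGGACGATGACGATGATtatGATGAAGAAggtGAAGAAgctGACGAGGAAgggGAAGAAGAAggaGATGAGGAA
Anp32b, codons 188 to 212: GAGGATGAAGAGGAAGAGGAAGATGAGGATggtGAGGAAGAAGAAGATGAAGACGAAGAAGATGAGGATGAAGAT
Anp32e, codons 154 to 178: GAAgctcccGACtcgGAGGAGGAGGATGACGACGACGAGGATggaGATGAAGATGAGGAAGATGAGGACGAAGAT
Ptma, codons 52 to 76: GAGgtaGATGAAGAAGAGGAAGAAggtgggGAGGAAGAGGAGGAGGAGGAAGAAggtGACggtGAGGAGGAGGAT

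**Figure D1:**
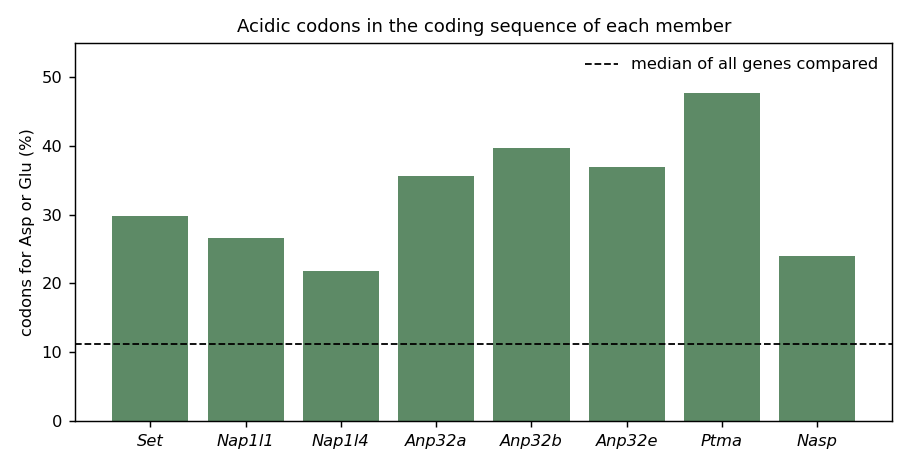
Share of codons for aspartate or glutamate (%) in the longest complete coding sequence of each of the 8 genes (bars), with the median of 21591 genes as a dashed line. Every bar stands above the median of 11.2%, from 21.8% for Nap1l4 to 47.8% for Ptma.

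The table holds estimated counts, which the authors made with Salmon, a program that shares reads between similar transcripts. 11 other mouse genes in GENCODE M21 matched the Set coding sequence at 90% identity or more over at least 50% of its length, as did 11 for Ptma, 2 each for Nap1l1 and Anp32b, and 0 for the remaining 4. Of these copies 1, Gm9009, matching Ptma, had a row in the table, with 0 counts in all 9 libraries. The sources used here do not say how reads from the other copies were handled, so the levels of Set, Ptma, Nap1l1 and Anp32b carry that uncertainty. Levels are CPM, counts relative to the library total after scaling with TMM factors, which set libraries of 15529158 to 18729980 counts on a common scale. CPM is not divided by gene length, so levels of different genes are not compared. The labelled cell type was checked against marker lists. All 12 astrocyte markers passed the filter, with summed levels of 731 to 745 CPM at 3 d, 713 to 744 at 90 min and 744 to 771 in controls. However, Gfap stayed at or below 1.76 CPM, S100b at or below 1.84 CPM and Fabp7 at or below 4.33 CPM. The 11 fibroblast and meningeal markers summed to 5689 to 6446 CPM at 3 d, 6309 to 7674 at 90 min and 6283 to 6993 in controls. In controls Fn1 averaged 2895, Col1a1 1419, Postn 1091 and Col1a2 877 CPM of this sum. Ogn averaged 88.3, Dcn 87.5, Mgp 34.1 and Fmod 32.8 CPM there. Lum averaged 7.96, Pdgfra 7.08 and Col3a1 4.28 CPM. The 7 markers of pericytes and smooth muscle summed to 669 to 687 CPM at 3 d, 522 to 584 at 90 min and 736 to 745 in controls. Olig1 and Olig2 (oligodendrocytes), P2ry12, C1qa and C1qb (microglia) and Cldn5 (endothelium) had 0 counts in all 9 libraries. In such bulk RNA, fewer cells of a type and less RNA per cell cannot be told apart.

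The members were chosen by values of 3 d against control, where Set and Anp32b had been among the few genes called lower, and the rule then lists the 8 by symbol. Those values are therefore given as a description with no test. The other comparisons each share 3 libraries with that one, 90 min against control the controls and 3 d against 90 min the 3 d libraries, and are not fully independent of it. Each was tested with edgeR over all 13090 genes, and a gene was called at a Benjamini-Hochberg adjusted p below 0.05.

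Set codes for the INHAT and PP2A inhibitor also named TAF-I. It was at 299, 291 and 315 CPM at 3 d, at 323, 322 and 322 CPM at 90 min, and at 350, 342 and 356 CPM in controls. The 3 groups did not overlap, with every 3 d library lowest, every control highest and the 90 min libraries close together between them.

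Nap1l1 codes for the widely expressed carrier of H2A and H2B. It was at 509, 503 and 523 CPM at 3 d, at 608, 589 and 580 CPM at 90 min, and at 554, 541 and 578 CPM in controls. All 90 min libraries were above all controls, the closest pair being 580 and 578 CPM, and all 3 d libraries were below both. Its relative Nap1l4 ranged from 147 to 156 CPM at 3 d, 157 to 163 CPM at 90 min and 154 to 159 CPM in controls, and both treated groups overlapped the controls.

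Among the Anp32 genes, Anp32b, whose protein binds core histones, was at 186, 188 and 204 CPM at 3 d, at 236, 211 and 214 CPM at 90 min, and at 240, 228 and 245 CPM in controls. All 3 d libraries were below all others, while the first 90 min library reached into the range of the controls and the other two stayed below it. Anp32e, the H2A.Z chaperone, was at 195, 183 and 185 CPM at 3 d, at 228, 213 and 221 CPM at 90 min, and at 197, 200 and 200 CPM in controls. The 90 min libraries stood above all others, and the highest 3 d library was 195.0 CPM against 196.6 CPM for the lowest control. Anp32a ranged from 188 to 201 CPM at 3 d, 190 to 209 CPM at 90 min and 204 to 212 CPM in controls, and the 90 min libraries overlapped both other groups.

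Ptma was at 1112, 1053 and 1152 CPM at 3 d, at 1344, 1336 and 1230 CPM at 90 min, and at 1233, 1195 and 1265 CPM in controls. The 3 d libraries lay below all others, and the third 90 min library lay among the controls. Nasp, which carries H3 and H4, was at 40.3, 42.3 and 44.5 CPM at 3 d, at 48.9, 46.8 and 51.7 CPM at 90 min, and at 48.1, 44.0 and 48.1 CPM in controls. Its 3 d libraries were below the 90 min ones and reached past the lowest control.

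**Figure D2:**
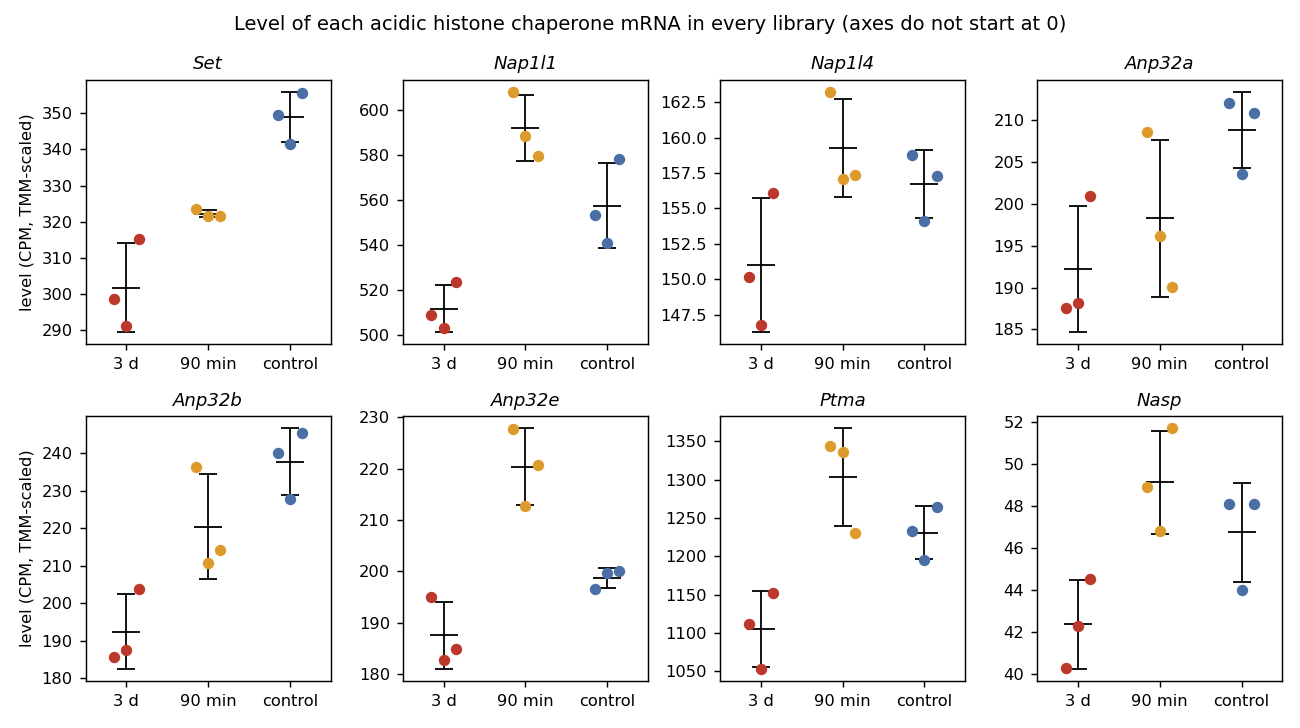
Level (CPM, TMM-scaled; each axis has its own range and does not start at 0) of each gene in the 3 libraries of each group (points), with the mean and SD (bars), 3 d left, 90 min in the middle and control right. The 3 d group has the lowest mean in all 8 panels, and the 90 min group has the highest in 5 of them.

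For every member the mean was lowest at 3 d. The mean was highest at 90 min for Nap1l1, Nap1l4, Anp32e, Ptma and Nasp, and highest in controls for Set, Anp32a and Anp32b. Neighbours in this order did not overlap in their libraries for Set, Nap1l1 and Anp32e. For Anp32b and Ptma the top 2 groups overlapped and the 3 d group stood apart, and for Nap1l4, Anp32a and Nasp both pairs of neighbours overlapped. The summed level of the 8 genes was 2595 to 2781 CPM at 3 d, 2966 to 3161 CPM at 90 min and 2907 to 3060 CPM in controls. Most of this sum was Ptma and Nap1l1. Ptma averaged 1106 CPM at 3 d, 1303 CPM at 90 min and 1231 CPM in controls, and Nap1l1 512, 592 and 558 CPM.

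The comparison of 90 min with control asks what differed when the noradrenaline exposure ended. Changes were small and went both ways: Anp32e rose and Set fell, while the other 6 members were not called. Of all genes tested 33.0% were called, 17.5% higher and 15.5% lower, so 2 of 8 members is a share near this background. Anp32e averaged 220 ± 7.48 CPM at 90 min and 199 ± 1.94 CPM in controls (SD, n = 3 each), 1.11-fold (log2 0.15, SE 0.04, edgeR adjusted p = 0.00895). Set averaged 322 ± 0.998 CPM at 90 min and 349 ± 7.02 CPM in controls (SD, n = 3 each), 0.923 times the control level (log2 −0.11, SE 0.04, edgeR adjusted p = 0.0314). Nap1l1, although its libraries did not overlap, was at 0.09 on the log2 scale (SE 0.04), with an edgeR adjusted p of 0.0983. Anp32b was at −0.11 (SE 0.05, edgeR adjusted p = 0.111), Anp32a at −0.07 (0.219), Ptma at 0.08 (0.172), Nasp at 0.07 (0.400) and Nap1l4 at 0.02 (0.716), with edgeR adjusted p in brackets. The median of the 8 log2 values was 0.05, and that of all genes was 0.00 after rounding.

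The calls of Anp32e and Set were not kept in every fit with a single library left out, while their log2 values changed little. Without the first 90 min library the edgeR adjusted p was 0.0535 for Anp32e, 0.0698 for Set and 0.0266 for Anp32b, which was then called lower (log2 −0.16). Set also lost its call without the second 90 min library (0.0681), the first 3 d library (0.0514), the first control (0.1002) or the third control (0.106). Without the third 90 min library Ptma was called higher (log2 0.12, edgeR adjusted p = 0.0281). The log2 values kept their signs in all 9 such fits, between −0.13 and −0.10 for Set and between 0.12 and 0.17 for Anp32e.

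The comparison of 3 d with 90 min asks which levels differed once the exposure was over, with medium renewal and further days in culture lying between them as well. Ptma, Anp32e, Nasp, Nap1l1 and Anp32b fell, to between 0.848 and 0.873 times the 90 min level. These were 5 of 8 members, and 0 rose, where 39.0% of all genes were called and 20.4% were called lower. Ptma averaged 1106 ± 49.5 CPM at 3 d and 1303 ± 63.5 CPM at 90 min (SD, n = 3 each), 0.848 times the 90 min level (log2 −0.24, SE 0.04, edgeR adjusted p = 0.000345). Anp32e averaged 188 ± 6.55 CPM at 3 d and 220 ± 7.48 CPM at 90 min (log2 −0.23, SE 0.04, edgeR adjusted p = 0.000195). Nasp fell by 0.21 on the log2 scale (SE 0.06) with an edgeR adjusted p of 0.00780. Nap1l1 fell by 0.21 (SE 0.04), at 0.000304 in that test, and Anp32b by 0.20 (SE 0.05), at 0.00510. All 5 stayed called when any 1 of the 9 libraries was left out. On the log2 scale Set was at −0.09, Nap1l4 at −0.08 and Anp32a at −0.04 (SE 0.04 for each), with edgeR adjusted p of 0.0646 for Set, 0.144 for Nap1l4 and 0.454 for Anp32a. Without the third 3 d library Set was also called lower (log2 −0.13, edgeR adjusted p = 0.0272). The libraries of 7 members, all but Anp32a, did not overlap, as for 23.8% of all genes in this direction. The median of the 8 log2 values was −0.20, and that of all genes was 0.00.

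**Figure D3:**
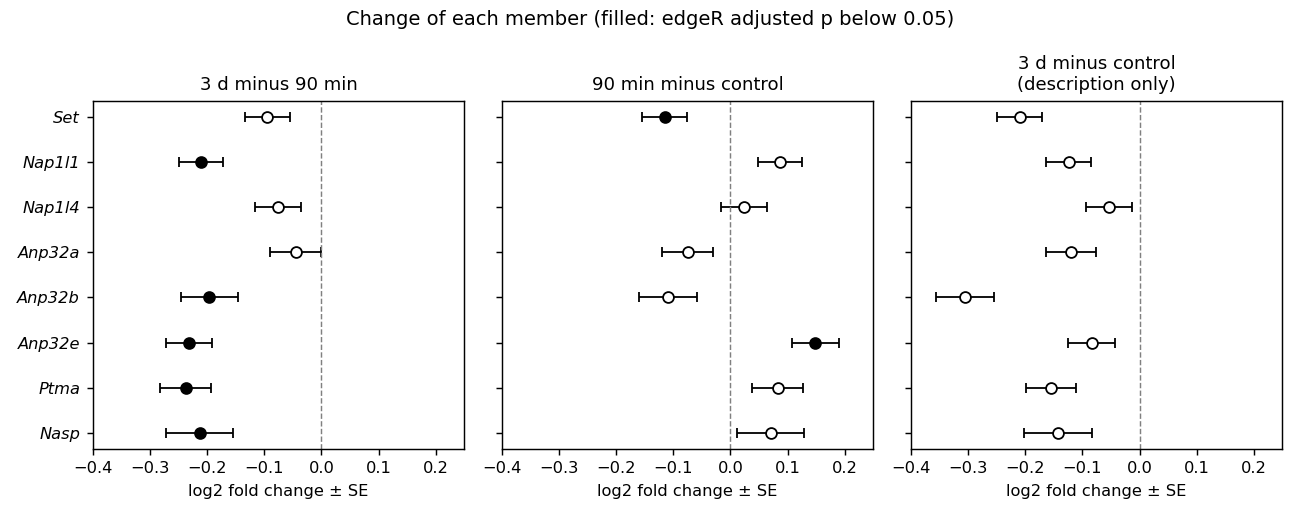
Log2 fold change ± SE of each gene for 3 d minus 90 min (left), 90 min minus control (middle) and 3 d minus control (right, description only). Filled points on the left and in the middle have an edgeR adjusted p below 0.05, and all points on the right are drawn open whatever their p. Of the filled points 5 lie below 0 on the left, and in the middle Set lies below 0 (−0.11) and Anp32e above it (0.15).

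Levels at 3 d beside controls, by which Set and Anp32b had been noticed, are given as a description. Anp32b averaged 192 ± 9.96 CPM at 3 d and 238 ± 8.92 CPM in controls (SD, n = 3 each), 0.810 times the control level (log2 −0.30, SE 0.05). Set averaged 302 ± 12.3 CPM at 3 d and 349 ± 7.02 CPM in controls, 0.865 times (log2 −0.21, SE 0.04). Log2 values were −0.15 for Ptma, −0.14 for Nasp, −0.12 for Nap1l1 and Anp32a, −0.08 for Anp32e and −0.05 for Nap1l4. The 2 genes were among 10 called lower in this comparison, 0.0764% of those tested, a count from the comparison that chose them and so no evidence about them. Neither was called with the replicate block, or when the first or second 3 d library or any 1 control was left out, and Set was not without the third 3 d or the first 90 min library. The libraries of 6 members, Set and Anp32b among them, lay wholly below the controls, as for 8.11% of all genes. Those of Nasp and Nap1l4 overlapped the controls. The median of the 8 was −0.13, and that of all genes was 0.00. This share and this median also come from the comparison that chose the members, and so are no evidence about them.

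The cell cycle lists had calls in 1 direction only at 3 d against 90 min and at 90 min against control. Between 3 d and 90 min, 11 of 25 S phase genes were called lower and 0 higher (median log2 −0.22). In the same comparison 10 of 25 genes of the G2 and M phases were called lower and 0 higher (median −0.24). Of all genes 20.4% were called lower between 3 d and 90 min, and 17.5% were called higher at 90 min against control. Against control, 7 of 25 S phase genes and 2 of 25 G2 and M genes were called higher at 90 min and 0 lower (medians 0.04 and 0.04). At 3 d against control 0 genes of either list were called. There 21 S phase values were below 0 and 4 above (median −0.11), and 24 G2 and M values were below 0 and 1 above (median −0.24). Single genes from these and the later lists, H2az1 apart, were named for having the smallest p at 90 min against control. The ribonucleotide reductase gene Rrm1 averaged 110.4 CPM at 3 d, 193 CPM at 90 min and 122 CPM in controls, and rose at 90 min against control (log2 0.66, edgeR adjusted p = 1.53e-09). The replication clamp gene Pcna (0.34, 0.000194), the ubiquitin ligase gene Dtl (0.54, 0.000716) and the spindle motor gene Kif11 (0.41, 0.00521) rose too, with log2 values and edgeR adjusted p in brackets. The topoisomerase gene Top2a (0.23, edgeR adjusted p = 0.0445) lost its call without the first or the third 90 min library or the first or the second control (0.1003 to 0.194). Ube2c, for a ubiquitin carrier of mitosis, was at 0.27 (edgeR adjusted p = 0.0740) and was called only without the first 90 min library (0.36, 0.0285). The S phase list summed to 653 to 707 CPM at 3 d, 841 to 855 CPM at 90 min and 714 to 752 CPM in controls. Rrm1, at the averages given above, made up the larger part of the difference between 90 min and controls in this sum. Of the 25 S phase genes 18 were not called in that comparison. The G2 and M list summed to 408 to 486 CPM at 3 d, 496 to 599 CPM at 90 min and 494 to 550 CPM in controls. The fibroblast and meningeal list, whose sums are given above, had 6 of 11 markers called lower and 1 higher at 3 d against 90 min, and 3 lower and 0 higher at 3 d against control. The part of these lists in the levels of the members was not tested. On the log2 scale about the mean over libraries, the S phase median was −0.07, −0.20 and −0.04 at 3 d, 0.10, 0.07 and 0.09 at 90 min, and 0.02, −0.05 and 0.03 in controls. The mean of the members was −0.12, −0.14 and −0.05 at 3 d, 0.10, 0.04 and 0.04 at 90 min, and 0.05, 0.01 and 0.07 in controls. Within each group the libraries stood in the same order by both measures. The G2 and M median ranged more widely, from −0.33 to −0.05 at 3 d, 0.01 to 0.25 at 90 min and −0.03 to 0.13 in controls. By that median the libraries stood in another order than by the members at 3 d and at 90 min, and in the same order in controls.

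**Figure D4:**
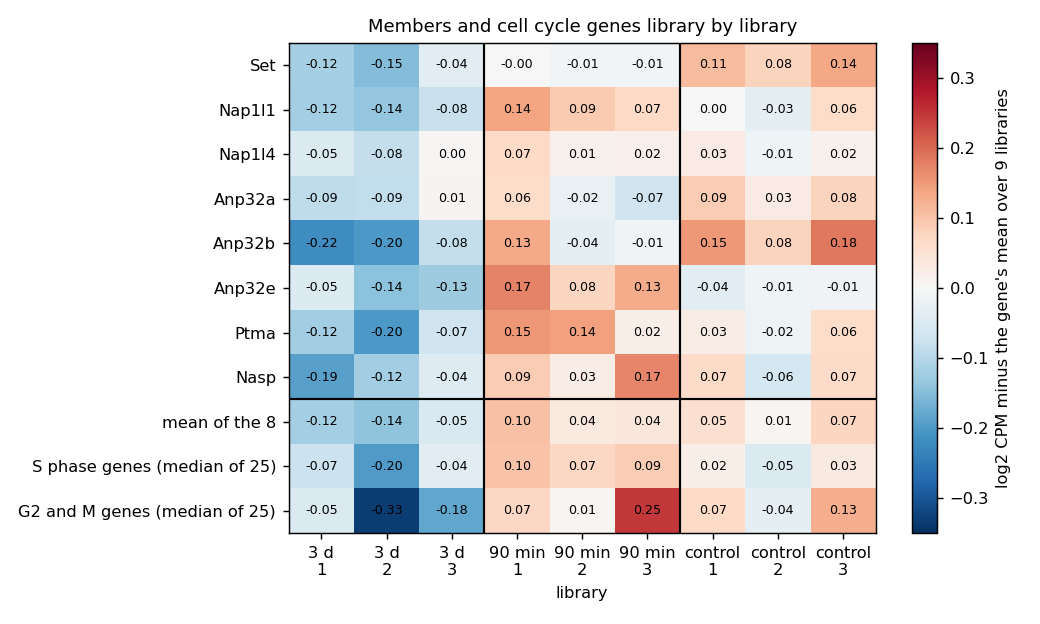
Log2 CPM of each gene minus its mean over the 9 libraries (colour and printed value), for the 8 members, their mean, and the medians of 25 S phase and 25 G2 and M genes. The mean of the members is below 0 in all 3 d libraries (−0.14 to −0.05) and above 0 in the other 6 (0.01 to 0.10).

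Relatives of the families outside the group behaved differently from one another. Nap1l5, an imprinted Nap1 gene, had 6, 12 and 7 counts at 3 d, 81, 112 and 81 counts at 90 min, and 4, 6 and 3 counts in controls. All 90 min libraries were far above the rest, and the controls held 13 counts in all. The fitted change was 19.7-fold at 90 min against control (log2 4.30, SE 0.31, edgeR adjusted p = 3.36e-09). At 3 d against 90 min the gene fell by 3.51 on the log2 scale (SE 0.27, adjusted p = 9.10e-09). Nap1l2 averaged 14.4 CPM at 3 d, 19.5 CPM at 90 min and 14.4 CPM in controls, and rose at 90 min (log2 0.44, edgeR adjusted p = 0.00123). The parathymosin gene Ptms fell at 90 min, to 313 CPM against 365 CPM in controls (log2 −0.22, edgeR adjusted p = 0.00408). In all, 3 of 8 tested relatives rose at 90 min against control and 2 fell, and at 3 d against 90 min 2 fell and 0 rose (medians 0.16 and 0.02). Of all genes 17.5% rose and 15.5% fell at 90 min against control. At 3 d against 90 min 39.0% of all genes were called, 20.4% lower.

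Of 28 other histone chaperone genes, 3 rose and 2 fell at 90 min against control (median 0.02). At 3 d against 90 min 6 of them fell and 2 rose (median −0.10). Beside these counts stand 33.0% of all genes called at 90 min against control and 39.0% called at 3 d against 90 min. Spty2d1, a gene for an H3 and H4 chaperone, averaged 53.0 CPM at 3 d, 82.8 CPM at 90 min and 52.9 CPM in controls, and rose at 90 min (log2 0.65, edgeR adjusted p = 1.61e-08). Chaf1b, a subunit gene of the replication chaperone CAF-1, rose (0.72, 3.68e-06), and Cabin1, of the HIRA complex, fell (−0.36, 3.74e-05), with log2 values and edgeR adjusted p in brackets. Of 10 histone variant genes, 3 rose and 1 fell at 90 min (median 0.09), and 5 fell and 0 rose at 3 d against 90 min (median −0.17). The H3.3 gene H3f3b averaged 818 CPM at 3 d, 1160 CPM at 90 min and 853 CPM in controls (log2 0.44 at 90 min, edgeR adjusted p = 7.30e-08), and the centromeric histone gene Cenpa rose (log2 0.48, edgeR adjusted p = 0.000465). H2az1, a gene for the client of Anp32e and chosen after its values were seen, was at 0.12 on the log2 scale at 90 min (edgeR adjusted p = 0.137) and fell at 3 d against 90 min (log2 −0.22, edgeR adjusted p = 0.00862). Without the third 90 min library it was called higher at 90 min (0.18, adjusted p = 0.0194), and without the second 3 d library its fall was not called (0.0553). Macroh2a2 fell at 90 min (log2 −0.27, edgeR adjusted p = 0.0123), a call lost without the first 90 min library (0.0726).

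Set and Anp32a act on PP2A. Of 23 tested genes of this phosphatase and its regulators, 6 rose and 2 fell at 90 min against control (median 0.07). At 3 d against 90 min 8 of them fell and 2 rose (median −0.05). The shares of all genes called were 33.0% at 90 min against control and 39.0% at 3 d against 90 min. Ppme1, whose enzyme demethylates the catalytic subunit, averaged 93.0 CPM at 3 d, 211 CPM at 90 min and 92.5 CPM in controls. It rose 2.29-fold at 90 min (log2 1.19, SE 0.05, edgeR adjusted p = 4.63e-13). The catalytic subunit gene Ppp2ca rose (log2 0.22, edgeR adjusted p = 0.000120) and the regulatory subunit gene Ppp2r5e fell (log2 −0.24, edgeR adjusted p = 0.000667). Of 6 tested genes of the SET complex and its partners 3 rose and 0 fell at 90 min (median 0.18), and 3 fell and 0 rose at 3 d against 90 min (median −0.15). Elavl1, for the RNA-binding protein HuR, rose by 0.19 on the log2 scale at 90 min (edgeR adjusted p = 0.0112). The other two were Hmgb2 (0.21, adjusted p = 0.0255), whose call was lost without the first 90 min library or any 1 control (adjusted p 0.05002 to 0.123), and Nme1 (0.18, adjusted p = 0.0476), lost without the first or second 90 min library, the second 3 d library or any 1 control (0.0539 to 0.275). Nme1 was also not called at 90 min with DESeq2 (0.0875), with only the 2 groups compared (0.0572) or with the replicate block (0.0546). The fall of Nme1 at 3 d against 90 min was not called without the first 3 d library (0.121) or the second 90 min library (0.185).

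Genes with the nearest pattern were found by the root mean square difference of centred log2 CPM over the 9 libraries, among 8759 genes whose log2 CPM averaged 4 or more, as a description with no test. Nearest to Anp32b were the smooth muscle genes Acta2 (0.0488) and Tagln (0.0537), both on the list of pericyte and smooth muscle markers. Pdgfrb and Cnn1, on the same list, had other patterns. Pdgfrb averaged 383 CPM at 3 d, 200 CPM at 90 min and 390 CPM in controls. Cnn1 averaged 4.43 CPM at 3 d, 19.6 CPM at 90 min and 4.33 CPM in controls. Nearest to Set were the chaperone gene Hsp90ab1 (0.0355) and the actin-binding gene Coro1c (0.0369). Tcp1 (0.0195) and Nsa2 (0.0215) were nearest to Nap1l1, Cthrc1 (0.0236) and Wdr46 (0.0275) to Ptma, and Fyttd1 (0.0301) and Arpc5l (0.0302) to Anp32e. Hbs1l and Dlst were nearest to Nap1l4, Fkbp10 and Nono to Anp32a, and Ets2 and Tars1 to Nasp, at 0.0194 to 0.0466. No member was among the nearest 2 of another.

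Promoters are shown for the members that differed most in direction, Anp32e (higher at 90 min), Set (lower at 90 min) and Anp32b (lowest at 3 d beside controls). They are the 250 bases before a transcript start in RefSeq (GRCm38.p6, an older build than the mm39 named in the submitters' processing notes), 5′ to 3′ on the strand of the gene, all plus. Capitals mark CACGTG (the E-box), TGACG (the core of the cyclic AMP response element) and CCAAT, on either strand.
Anp32e, chr3:95929007-95929256: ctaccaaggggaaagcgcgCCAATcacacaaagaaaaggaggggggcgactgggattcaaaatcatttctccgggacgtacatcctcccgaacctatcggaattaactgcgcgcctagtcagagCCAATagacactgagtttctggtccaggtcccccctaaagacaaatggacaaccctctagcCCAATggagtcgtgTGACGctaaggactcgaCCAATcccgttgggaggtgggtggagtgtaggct
Set, first listed start, chr2:30061746-30061995: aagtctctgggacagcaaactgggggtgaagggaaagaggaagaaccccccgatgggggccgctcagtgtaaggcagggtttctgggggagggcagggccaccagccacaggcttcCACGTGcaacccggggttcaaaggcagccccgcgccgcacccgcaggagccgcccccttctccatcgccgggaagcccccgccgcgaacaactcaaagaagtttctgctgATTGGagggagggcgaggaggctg
Anp32b, chr4:46450676-46450925: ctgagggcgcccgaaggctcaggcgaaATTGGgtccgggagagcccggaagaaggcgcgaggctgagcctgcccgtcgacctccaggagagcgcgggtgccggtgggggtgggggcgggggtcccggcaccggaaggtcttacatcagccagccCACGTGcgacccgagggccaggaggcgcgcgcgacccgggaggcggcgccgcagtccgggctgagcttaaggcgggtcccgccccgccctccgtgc

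7 members had a promoter in the table, and Nap1l4 is named only. TGACG, searched on both strands after the values were seen, was in the 250 bases of Nap1l1, Anp32e, Ptma and Nasp, 4 of 7, against 19.8% of 27025 genes. Both starts of Set in the table were searched. In Anp32e it began 51 bases before the start. CACGTG was in those of Set (its first listed start, not the second) and Anp32b, against 6.86% of genes, beginning 134 and 96 bases before the start. CCAAT was in 6 of 7, against 37.5% of genes, with 4 copies in Anp32e. GGGCGG, the GC box, which is not capitalised above, was in 4 of 7 (Set, Anp32a, Anp32b and Ptma), against 35.4% of genes. The full element TGACGTCA, which holds TGACG, was in 0 of 7, against 1.77% of genes. A match says only that these letters are in this window.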

How the data were processed

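The authors deposited estimated counts per gene for 9 poly(A) RNA libraries, 3 per group. Tools named in the submitters' processing notes are fastp 0.23.4 and Salmon 1.8.0, and the build is mm39. The summing to genes, the annotation and the strand setting were not given in the sources used. All values were whole, so rounding changed none. Groups and replicate numbers come from the sample titles.

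The fit used edgeR 4.0.16 under R 4.3.3, with filterByExpr (minimum count 10, minimum total 15), TMM factors (0.961 to 1.03), 1 quasi-likelihood fit of all 9 libraries with a coefficient per group, two-sided tests and Benjamini-Hochberg adjustment over all 13090 genes. SE is the log2 fold change over the square root of F. The fit was tested on simulated counts. 1 row without a symbol (at most 0.000668% of a library) was kept. Replicates of a group differed by a chi-square of 2.37 to 6.89 per degree of freedom, so no 2 libraries matched within sampling noise. Members, gene lists and tests were chosen with earlier results of these data known. The rule for named genes takes all members, the 3 genes of each list that is no marker list with the smallest p at 90 min against control, and the 2 nearest patterns per member. Alternatives were RLE factors, no or a stricter filter (minimum count 50), DESeq2 1.42.0, only the 2 groups compared, a replicate block, and each library left out in turn. Coding sequences are the longest complete one per gene; copies were sought with blastn.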

Additional observations from a re-analysis of the deposited data

Results flagged for a closer look

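The log2 fold changes against control at 90 min and at 3 d differed for the 5 members and 30 other named genes below. This is by the edgeR test of 3 d against 90 min (adjusted p below 0.05). Both effects share the controls, which cancel in the difference, so it is the same comparison of 3 d with 90 min as above. The difference (3 d minus 90 min) was −0.24 for Ptma, −0.23 for Anp32e, −0.21 for Nap1l1, −0.21 for Nasp and −0.20 for Anp32b. Among relatives and other chaperones it was −3.51 for Nap1l5, −0.44 for Nap1l2, −0.64 for Spty2d1, −0.90 for Chaf1b and 0.35 for Cabin1. Among histone variants and PP2A genes it was −0.50 for H3f3b, −0.67 for Cenpa, −0.22 for H2az1, −1.18 for Ppme1, −0.25 for Ppp2ca and 0.17 for Ppp2r5e. It was −0.24 for Elavl1, −0.32 for Hmgb2 and −0.19 for Nme1 among SET complex partners, the last not called without the first 3 d or the second 90 min library. Among cell cycle genes it was −0.81 for Rrm1, −0.37 for Pcna, −0.70 for Dtl, −0.76 for Kif11 and −0.45 for Top2a. Among the nearest patterns, which were picked for likeness to the members over these same libraries, it was −0.11 for Hsp90ab1, −0.18 for Tcp1, −0.18 for Nsa2, −0.26 for Acta2, −0.16 for Tagln, −0.19 for Fyttd1, −0.19 for Arpc5l, −0.23 for Cthrc1, −0.21 for Wdr46, −0.17 for Ets2 and −0.20 for Tars1. Of these, Hsp90ab1 was not called without the first or the second 3 d library, the first 90 min library or the first control (adjusted p 0.0592 to 0.201), with no filter (0.0760), with only the 2 groups compared (0.0607) or with the replicate block (0.0711). Tagln was not called without the first or the second 3 d library or the first 90 min library (0.0579 to 0.187) or with only the 2 groups compared (0.0535). Wdr46 was not called without the second 3 d library (0.0737) or the first 90 min library (0.0661), and Ets2 was not without the first 3 d library (0.0504). H2az1 was not without the second 3 d library (0.0553). Genes named from the lists, H2az1 apart, were those with the smallest p at 90 min against control. That comparison shares the 90 min libraries with 3 d against 90 min, so their differences are not independent of the choice. With groups of 3 libraries, single outlying libraries were not tested for.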

How the results depend on the processing

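The 5 members lower at 3 d against 90 min were called in all 15 alternatives, with Set as a sixth when the third 3 d library was left out (5 to 6 called). At 90 min against control 2 members were called, as was the case under RLE factors, both other filters, DESeq2 and the fit of only the 2 groups. With the replicate block 1 was called (Set at an adjusted p of 0.0553), and 1 to 3 were called when single libraries were left out. The replicate numbers did not pair the libraries: the deviations of same-numbered libraries had correlations of −0.48 to 0.05 over 8760 genes, and in 0 of 18 cases was a library's own number its best match. No member changed sign in any of the 15 alternatives, and the median of all genes stayed between −0.01 and 0.01 on the log2 scale.

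The number of genes called at 3 d against control, 15, was 205 with no filter, 76 with DESeq2, 76 with only the 2 groups compared and 3 with the replicate block. With single libraries left out it ranged from 0 to 83: 83 and 29 without the third and the second 90 min library, 5 and 4 without the second and the third 3 d library, 3 without the first or the third control, and 0 without the second control (edgeR, 1301 genes at an unadjusted p under 0.05; DESeq2 was not run on these libraries). The cause was not tested. The description of 3 d against control above rests on levels, and its log2 values ranged from −0.35 to −0.28 for Anp32b and from −0.24 to −0.19 for Set when single libraries were left out. Depth limits Nasp most among the members, with 695 to 891 counts per library.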
